A study of Mus musculus with 6 samples.

Results

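The proteasome is the multi-subunit protease that degrades proteins tagged with ubiquitin. Its core particle is a stack of rings of alpha and beta subunits with the proteolytic sites on the inner face of the beta rings, and its cap (a base with a ring of ATPases, and a lid) recognises, deubiquitinates and unfolds substrates and feeds them into the core. Activators can take the place of the cap, and interferon exchanges the constitutive catalytic beta subunits for inducible ones, which shifts the peptides that reach MHC class I molecules. The genes described here are the constitutive subunits, taken as every gene whose symbol is Psma, Psmb, Psmc, Psmd, Psme or Psmf followed by a number, without the inducible Psmb8, Psmb9 and Psmb10. This gave 41 of the 34745 genes in the table: 8 of the alpha ring, 8 of the beta ring, 6 ATPases and 3 other subunits of the base, 8 of the lid, 3 chaperones of cap assembly, 4 activators and 1 inhibitor. Of these, 39 had enough counts to be tested, among 15539 tested genes. Psma8 and Psmb11 did not.

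RNA had been sequenced from subcutaneous tumours in the flank of C57BL/6J mice, 3 on a high cholesterol diet (HCD) and 3 on a normal diet (ND). All mice had been injected with B16F10, a cultured mouse melanoma line, and the comparison addresses how diet changes the tumour transcriptome. The libraries were paired-end, from total RNA. The labels give no age, sex, diet composition or feeding time and do not say whether each tumour is from a separate animal, so p-values measure the spread between these 6 samples only.

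Library totals were 20351637 to 20918324 counts in HCD and 20622727 to 26228074 in ND. Defining genes of the labelled melanoma cells were not detected: Tyr, Dct and Mlana had 0 counts in every library, and the 7 melanocyte markers together reached 5.80 to 11.1 CPM (a gene's counts relative to library size, scaled by TMM) in HCD and 4.20 to 7.41 CPM in ND. The 7 hepatocyte markers, of which Alb was at 2974 to 4366 CPM in HCD and 3264 to 4063 CPM in ND, summed to 6360 to 8453 CPM in HCD and 6638 to 7904 CPM in ND. Leucocyte markers also differed between libraries. The 5 T cell markers, each detected in every library and each higher in the mean of HCD, summed to 66.1, 91.2 and 38.1 CPM in HCD 1 to 3 and to 12.1, 44.7 and 57.2 CPM in ND 1 to 3, and the 5 macrophage markers to 629, 1036 and 439 CPM in HCD and 284, 639 and 538 CPM in ND. HCD 2 was the highest and ND 1 the lowest library for both lists. They were so too for the 5 general leucocyte markers, at 418, 677 and 366 CPM in HCD and 271, 469.6 and 445 CPM in ND, of which 4 were higher in the mean of HCD and Cd53 in that of ND. Neutrophil markers had another order, at 59.0, 72.1 and 57.8 CPM in HCD and 129, 71.0 and 134 CPM in ND, with 0 of 4 higher in HCD. Skeletal muscle markers stood at 1486 CPM in HCD 1 and 1565 CPM in ND 2, and at 7.77 to 137 CPM in the other 4 libraries.

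The promoters of 4 subunit genes are shown because these genes carry the contrasts described further on. Psma3 had the smallest p of all members, Psmb3 the smallest of the beta ring, Psmb5 encodes the chymotrypsin-like catalytic subunit, and Psme1 had the largest fold change. Each is the RefSeq promoter on GRCm38.p6, 250 bases before to 50 after the start site, at chr12:70974373-70974672 (plus strand) for Psma3, chr11:97703184-97703483 (plus) for Psmb3, chr14:54617946-54618245 (minus) for Psmb5 and chr14:55578244-55578543 (plus) for Psme1. The RefSeq start of Psme1 lies 371 bases downstream of the gene start given by GENCODE. Capitals mark matches, on either strand, to any of 5 motifs.
Psma3: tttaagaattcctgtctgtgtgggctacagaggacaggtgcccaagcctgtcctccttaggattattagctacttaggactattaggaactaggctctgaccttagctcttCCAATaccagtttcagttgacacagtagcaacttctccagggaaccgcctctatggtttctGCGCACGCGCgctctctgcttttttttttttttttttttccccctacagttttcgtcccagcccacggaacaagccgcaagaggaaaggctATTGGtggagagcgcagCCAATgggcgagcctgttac
Psmb3: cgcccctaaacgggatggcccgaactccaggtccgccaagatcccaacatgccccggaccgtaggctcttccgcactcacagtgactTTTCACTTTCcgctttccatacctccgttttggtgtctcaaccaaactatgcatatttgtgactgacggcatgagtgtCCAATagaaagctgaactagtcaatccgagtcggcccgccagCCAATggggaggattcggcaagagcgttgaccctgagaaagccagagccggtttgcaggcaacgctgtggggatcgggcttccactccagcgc
Psmb5: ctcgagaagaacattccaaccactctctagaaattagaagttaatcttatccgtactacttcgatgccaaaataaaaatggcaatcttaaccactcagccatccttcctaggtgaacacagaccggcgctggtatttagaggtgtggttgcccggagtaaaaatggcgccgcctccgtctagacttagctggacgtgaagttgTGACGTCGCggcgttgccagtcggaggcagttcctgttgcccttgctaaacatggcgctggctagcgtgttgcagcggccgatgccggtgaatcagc
Psme1: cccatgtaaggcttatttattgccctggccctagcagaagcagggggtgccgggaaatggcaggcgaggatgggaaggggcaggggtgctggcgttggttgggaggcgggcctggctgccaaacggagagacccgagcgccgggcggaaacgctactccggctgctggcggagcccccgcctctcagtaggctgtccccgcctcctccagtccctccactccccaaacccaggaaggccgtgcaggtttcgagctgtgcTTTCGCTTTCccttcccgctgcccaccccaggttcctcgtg

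A promoter was listed for 34 of the 41 genes, and the shares below are set beside those over 32851 promoters of the same length. The units differ, since members were counted with 1 promoter per gene and the 32851 include every listed promoter of a gene. The antioxidant response element core TGACNNNGC, the site family of the stress factors encoded by Nfe2l1 and Nfe2l2, was found in 6 of 34 (17.6%, against 12.4% of all promoters), among them Psmb5, where it starts 47 bases before the start site, and Psmb6, Psmc6, Psmd12, Psmd9 and Psme4. The NF-Y box CCAAT was found in 13 of 34 (38.2%, against 37.4%). The 10-base nuclear respiratory factor motif, the capitals 78 bases before the start site of Psma3, was found in 6 of 34 (17.6%, against 4.60%), in Psma2, Psma3, Psma4, Psmc4, Psmc5 and Psmd14. The 10-base interferon response motif, the only capitals in Psme1, was found in 4 of 34 (11.8%, against 3.44%), in Psmb3, Psmd4, Psmd9 and Psme1, and the STAT motif TTCNNNGAA in Psmd2 only (2.94%, against 8.30%). Of the genes shown, Psmb5 has the antioxidant core alone, Psma3 the respiratory factor motif with 3 NF-Y boxes, Psmb3 the interferon motif with NF-Y boxes, and Psme1 the interferon motif alone. The same search found no interferon motif in Psme2 or in the inducible Psmb8, Psmb9 and Psmb10. The windows of Psmd9, Psmd5, Psmb11 and Psmf1 lie 58777, 4006, 3877 and 2876 bases from the gene start given by GENCODE, and Psmd9 is counted in the antioxidant and interferon shares. For the members these are letter matches in 1 window per gene, and no binding was measured.

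The level of the genes was described first. Each tested gene had between 539 (Psmd10) and 6603 (Psmd1) counts in a library, and the 41 genes together took 0.426% to 0.450% of all counts in HCD and 0.396% to 0.430% in ND libraries. By the deposited FPKM, which divides by library size and gene length, the core genes were spread widely, with Psmb1 highest at 149 ± 9.13 FPKM, Psma2 next at 122 ± 7.58, Psma3 at 17.7 ± 1.73 and Psmb7 lowest at 13.6 ± 1.33 FPKM (SD, n = 6). Psma2, Psma3, Psmb1 and Psmb7 encode ring subunits that are present in equal copy number in the assembled core.

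That range depended on the gene length behind the FPKM. The length implied by the deposited counts and FPKM was longer than the union of all annotated exons for 31 of 41 genes, and it was 0.324 to 5.35 times the length of the principal transcript in GENCODE M21, with a median of 2.25. For Psmb7, which encodes the trypsin-like catalytic subunit, the implied length was 3560 bases against a principal transcript of 1160. For Psma2 it was 944 against 2911 bases. Dividing the counts by the principal transcript narrowed the core genes to between 38.9 ± 3.80 (Psma3) and 141 ± 11.3 (Psmb4) CPM per kilobase (SD, n = 6), a ratio of highest to lowest of 3.60 to 3.87 in HCD and 3.64 to 3.82 in ND libraries, against 9.77 to 11.7 in HCD and 11.0 to 11.9 in ND libraries by FPKM. Across the 14 tested core genes, which are not independent replicates, the order by the one measure and the order by the other had a Spearman rho of 0.024. Differences in level between subunits are therefore given here with both lengths, and differences between diets, in which the length cancels, are unaffected.

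**Figure D1:**
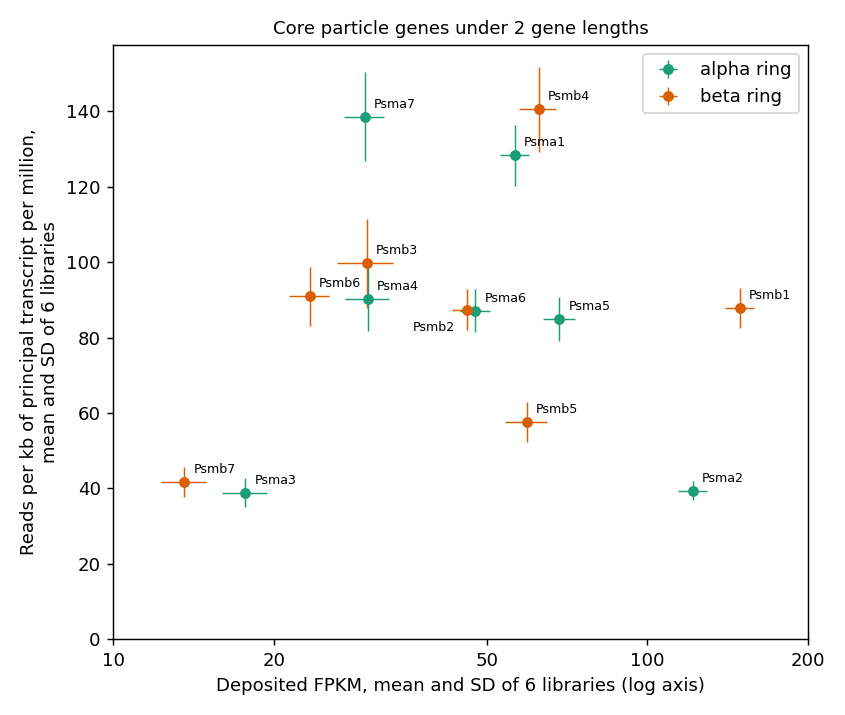
Level of the 14 tested core particle genes by deposited FPKM (x, log axis) and by CPM per kilobase of principal transcript (y), mean and SD of 6 libraries. Psma2 and Psmb1 lead by FPKM, at 122 and 149, while Psmb4 and Psma7 lead by principal transcript, at 141 and 139.

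The base and lid genes lay closer together. By principal transcript the 17 tested cap genes ran from 38.0 ± 3.04 for Psmd11, a lid scaffold gene, to 99.8 ± 6.15 for Psmd4, which encodes a ubiquitin receptor (SD, n = 6). By FPKM Psmd11 was also the lowest, at 10.5 ± 0.839, and Psmc6, an ATPase gene, was the highest at 81.2 ± 3.38. The 3 chaperones that guide cap assembly, Psmd5, Psmd9 and Psmd10, were at 13.2 to 19.5 by principal transcript, below every cap gene, and at 4.28 to 16.5 by FPKM, where Psmd10 lay above Psmd11 and Psmc2. Psmf1, whose product inhibits the core particle in vitro, had the lowest level of the 39 tested genes by both measures, 10.1 ± 0.420 by principal transcript and 3.73 ± 0.155 FPKM.

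Tissue-restricted subunits were near the detection limit. Psma8, the alpha subunit of the testis, had 8, 2 and 6 counts in HCD and 3, 3 and 7 in ND libraries. Psmb11, the catalytic subunit of the cortical epithelium of the thymus, had 1, 1 and 0 counts in HCD and 3, 4 and 6 in ND libraries. A count of 0 allows up to 0.147 CPM in 1 library (3 counts, counting error only), so these values lay within a few counts of that floor, and no fold is given. Of the 3 testis germ cell markers, Ddx4 had 4, 7 and 2 counts in HCD and 4, 3 and 5 in ND libraries, Sycp3 had 0, 0 and 2 in HCD and 0, 6 and 0 in ND, and Dazl 0 in each HCD library and 0, 3 and 5 in ND. Of the 3 markers of the thymic cortical epithelium, Foxn1 had 1 count in all, in ND 2, and Prss16 had 15, 15 and 18 counts in HCD and 16, 13 and 14 in ND. Ly75, which dendritic cells also express, was at 107 to 132 CPM in HCD and 109.98 to 122 CPM in ND.

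Between the diets, no member of the proteasome passed the test. edgeR called 0 of 39 higher and 0 lower in HCD tumours (adjusted p under 0.05), as it did for 0% of all tested genes in each direction, and DESeq2 and limma-voom also called 0 members. Without adjustment 3 members had p under 0.05, all higher in HCD, against 1.81% of all tested genes higher and 3.48% lower. The fold changes were small and mostly of 1 sign: 35 of 39 were positive, against 53.0% of all tested genes and 49.7% of the 6030 other genes in the members' range of mean CPM. Their median log2 fold change was 0.09, against 0.01 over all tested genes and -0.00080 in that range. For 7 of 39 members, Psma3, Psma7, Psmc2, Psmc6, Psmd11, Psme1 and Psmf1, the diets did not overlap and HCD was higher, as it was for 4.75% of all tested genes and 4.63% of the others in that range. For 0 of 39 HCD was lower without overlap, against 6.36% of all tested genes. Members whose products share a complex and whose levels vary together are not 39 separate observations.

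The excess of positive fold changes was smaller without HCD 3. That library held the highest value for 29 of the 39 members, while ND 1 held the lowest for 21 and HCD 2 for 12. Among the 6030 other genes in the members' range of mean CPM, the counts were 1280, 1095 and 1566. Averaged over the 39 members, the deviation of each library from the gene's mean log2 CPM was 0.05, -0.02 and 0.10 in HCD 1, 2 and 3 and -0.09, -0.0093 and -0.02 in ND 1, 2 and 3. HCD 2 thus lay among the ND libraries, and the diets overlapped. Without HCD 3, 26 of 39 fold changes were positive, the median was 0.04 and 0 members had an unadjusted p under 0.05. Without ND 1 the median was 0.06 and again 0 members had such a p, and without HCD 2 the median was 0.12 and 7 members had one. The number of all tested genes with such a p also moved. It was 450 higher and 546 lower of 15996 without HCD 3, and 154 and 224 of 15982 without ND 1. Without HCD 2 it was 409 and 434 of 15926.

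**Figure D2:**
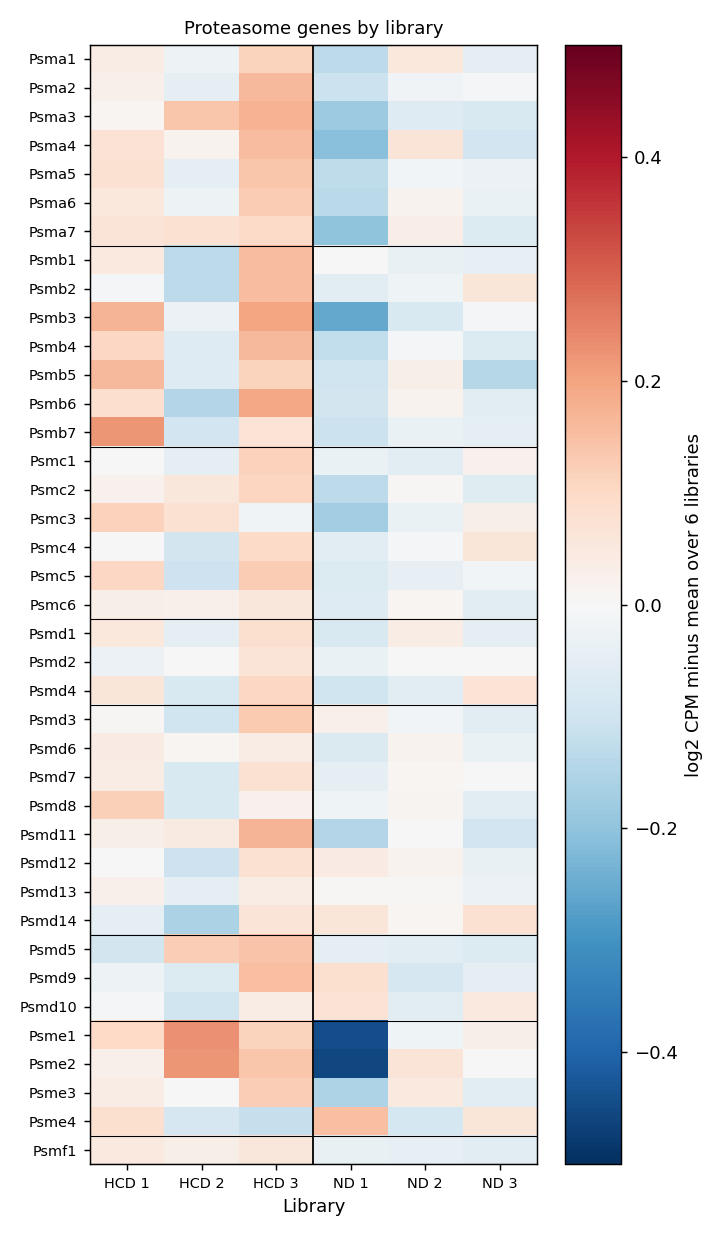
Deviation in log2 CPM of each of the 39 tested genes from its own mean over 6 libraries (colour), with HCD libraries left of ND libraries and lines between the role classes. HCD 3 is the highest library for 29 genes and ND 1 the lowest for 21. The counts are 1280 and 1095 among 6030 other genes in the members' range of mean CPM. Psme1 and Psme2 differ most between libraries, with SDs of 0.23 and 0.24.

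The median member varied less between tumours than the median tested gene, but this did not hold alike for all classes. The SD of log2 CPM over the 6 libraries had a median of 0.09, against 0.18 over all tested genes and 0.11 for the other genes in the members' range of mean CPM. It was lowest for Psmd13 (0.03) and Psmd2 (0.03), a lid and a base gene, and highest for the activator genes Psme1 (0.23) and Psme2 (0.24). The median SD was 0.11 over the 14 core genes, as in the other genes of that range. It was 0.07 over the 17 cap genes and 0.17 over the 4 activator genes. Differences of the size seen for most members were not detectable with 3 libraries a diet, since the standard error of the log2 fold change ran from 0.05 to 0.14.

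In the alpha ring, which gates the entry to the core, the fold changes of all 7 tested genes were positive, 0.08 to 0.22, with a median of 0.11 and 0 of 7 past the test. The median was 0.07 without HCD 3. Psma3 (chromosome 12, 70974621 to 70996347, GRCm38) had 111, 121 and 124 CPM in HCD 1 to 3, against 97.1, 105 and 105 CPM in ND 1 to 3. The diets did not overlap for this gene. Its log2 fold change was 0.22 ± 0.07 SE (unadjusted p = 0.0163, adjusted p = 0.839 by edgeR), and 0.18 without ND 1. Elsewhere in the genome 7 genes match Psma3 over part of its length, 205 to 772 bases at 90.6% identity or more, and the 1 with counts in the table held 0.0276% as many counts. Psma7, the other gene of the ring without overlap, had 132, 133 and 135 CPM in HCD, against 109.7, 129 and 120.4 CPM in ND. Psma2 had 117, 111 and 128 CPM in HCD, against 106, 113 and 114 CPM in ND, with overlapping diets and a log2 fold change of 0.09 ± 0.07 SE, which was 0.03 without HCD 3.

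In the beta ring the 7 fold changes were also positive, 0.01 to 0.23, with a median of 0.13, 0 past the test, and no gene whose diets did not overlap. The median was 0.08 without HCD 1 and 0.21 without HCD 2. Psmb3, a non-catalytic beta subunit (chromosome 11, 97703399 to 97713500), had 85.5, 74.5 and 87.1 CPM in HCD, against 63.6, 72.1 and 75.4 CPM in ND. HCD 2 lay just below ND 3. The log2 fold change was 0.23 ± 0.09 SE (unadjusted p = 0.0460, adjusted p = 0.839 by edgeR) and ran from 0.16 without ND 1 to 0.30 without HCD 2. Elsewhere in the genome 7 pseudogenes match Psmb3 over 518 to 629 of its 766 bases, at 91.7% identity or more, and the listed one had 0 counts. Psmb1, the most abundant core gene by FPKM, had 159.7, 141 and 172 CPM in HCD and 154, 150.2 and 149.9 CPM in ND. Its HCD libraries stood on either side of all ND libraries, and its log2 fold change of 0.06 ± 0.08 SE was -0.01 without HCD 3.

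The 3 constitutive catalytic subunits had overlapping diets. Psmb5, with the chymotrypsin-like site, had 57.9, 49.5 and 55.8 CPM in HCD, against 48.2, 52.8 and 46.8 CPM in ND, a log2 fold change of 0.14 ± 0.09 SE. Psmb6, with the caspase-like site, had 76.7, 65.4 and 82.7 CPM in HCD, against 67.8, 73.2 and 69.6 CPM in ND, a log2 fold change of 0.09 ± 0.10 SE. Psmb7 had 56.2, 45.1 and 50.5 CPM in HCD, against 44.7, 47.1 and 46.6 CPM in ND, a log2 fold change of 0.13 ± 0.09 SE. In all 3 genes HCD 1 and HCD 3 lay above every ND library and HCD 2 among or below them. Their adjusted p-values were 0.839, 0.867 and 0.842 by edgeR. With 1 library left out the fold change ran from 0.09 to 0.21 for Psmb5, 0.015 to 0.19 for Psmb6 and 0.05 to 0.21 for Psmb7. The highest value was the one without HCD 2 in each gene, and the lowest the one without HCD 3 for Psmb6 and without HCD 1 for the other two. Psmb7 shares 405 bases of exon with Nek6 on the other strand, so reads of both genes could not be told apart if strand was not used in counting. The same holds for the inducible Psmb8 and Psmb9, which share 498 and 212 bases with Gm20496 and Tap1. Psmb5 matches the pseudogene Gm3375 at 98.9% over 796 of 899 bases, and how such reads were counted is not known.

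**Figure D3:**
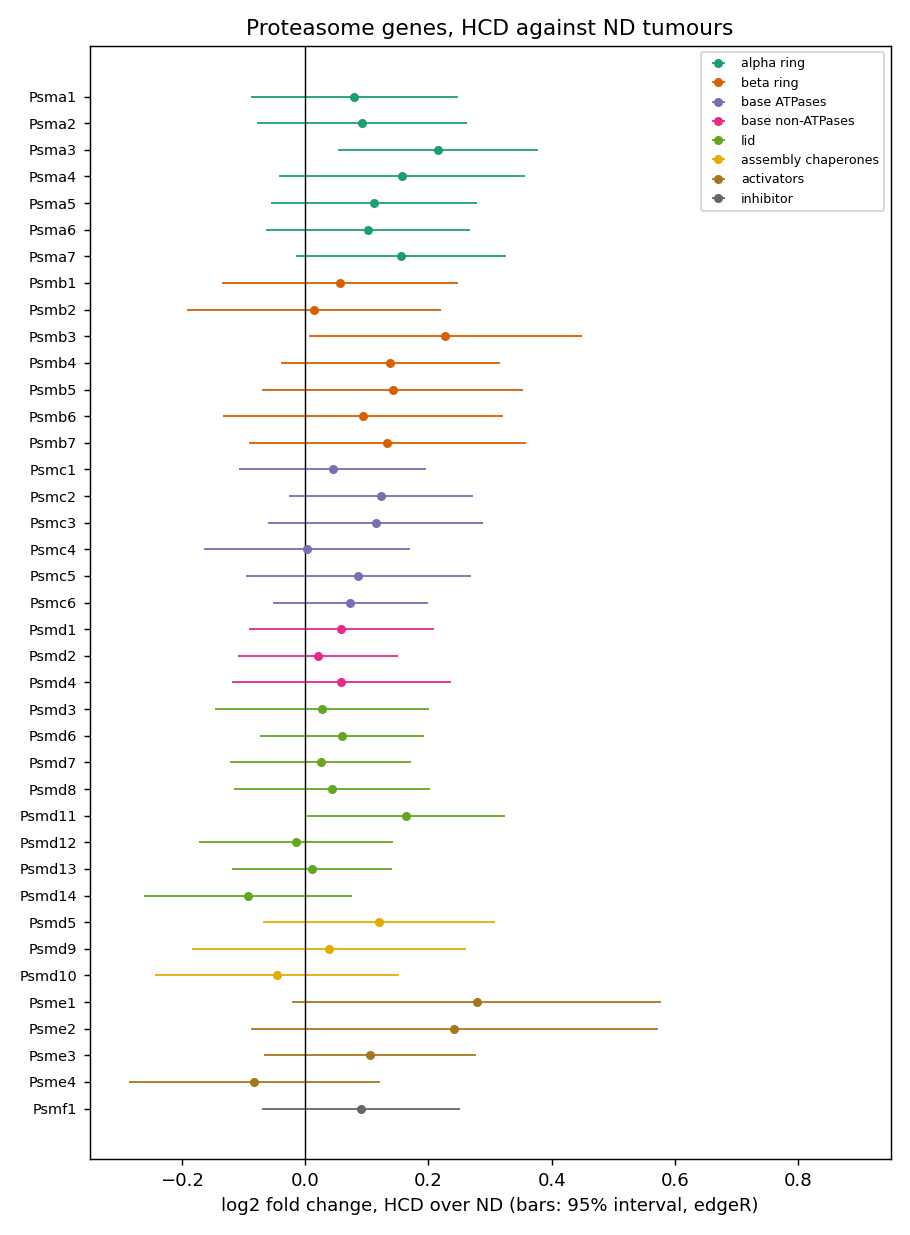
Log2 fold change of HCD over ND for the 39 tested genes with 95% intervals from edgeR, coloured by role. The points lie between -0.09 (Psmd14) and 0.28 (Psme1), and the intervals of all genes but Psma3, Psmb3 and Psmd11 include 0.

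In the base, the 6 ATPase genes had fold changes of 0.0031 (Psmc4) to 0.12 (Psmc2), a median of 0.08, which was 0.05 without HCD 3, and the 3 other genes 0.02 to 0.06. Psmc2 had 87.0, 89.1 and 92.3 CPM in HCD, against 78.2, 86.1 and 82.1 CPM in ND, with all HCD libraries above, and a log2 fold change of 0.12 ± 0.06 SE (unadjusted p = 0.0923, adjusted p = 0.839 by edgeR). Psmc6 also separated the diets, at 129.6, 129 and 132 CPM in HCD against 121, 128 and 122 CPM in ND. Neither gene passed the test, and for both ND 2 was the ND library closest to HCD. The scaffold gene Psmd1 had 252, 235 and 257 CPM in HCD, against 230.4, 249.8 and 235 CPM in ND. The other scaffold gene, Psmd2, had 206, 210.3 and 220.4 CPM in HCD, against 206, 211 and 211 CPM in ND. Psmd4, a ubiquitin receptor gene, had 138, 126 and 143 CPM in HCD, against 124, 128 and 139 CPM in ND. The diets overlapped for all 3, HCD 3 was the highest library of each, and the fold change of Psmd2 was -0.0087 on the log2 scale without HCD 3.

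The lid had a median fold change of 0.03, with 6 of 8 positive and 0 past the test. The median was -0.0084 without HCD 3, 0.0062 without HCD 1 and 0.07 without HCD 2. Psmd11 (chromosome 11, 80428615 to 80473248) had the smallest p of the lid, with 110.3, 111 and 121 CPM in HCD, against 97.5, 108 and 101 CPM in ND. All HCD libraries were above the ND libraries. The log2 fold change was 0.16 ± 0.07 SE (unadjusted p = 0.0472, adjusted p = 0.839 by edgeR), and 0.12 without HCD 3. A730017L22Rik, which matches Psmd11 at 97.9% over 1501 of 2848 bases, held 6.18% as many counts as Psmd11, and how reads were shared between them is not known. Psmd14, the deubiquitinase of the lid, had 101, 93.4 and 109 CPM in HCD, against 109, 105 and 109.9 CPM in ND, a log2 fold change of -0.09 ± 0.07 SE, the lowest of the 39, which was -0.03 without HCD 2. Its HCD 3 library lay within the ND range and the other HCD libraries below it. Psmd7, the partner of Psmd14 in the lid, had 131, 121 and 135 CPM in HCD, against 124, 129 and 128 CPM in ND, with HCD libraries on either side of ND.

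The 3 cap chaperone genes had fold changes of -0.05 to 0.12, and 0 passed the test. Psmd5 had 63.8, 74.0 and 75.0 CPM in HCD, against 65.8, 65.3 and 64.8 CPM in ND. HCD 1 lay below the narrow ND range and HCD 2 and 3 above it. Psmd9 had 33.5, 32.5 and 37.9 CPM in HCD, against 36.0, 32.2 and 33.0 CPM in ND. Psmd10, which encodes gankyrin, had 27.8, 26.04 and 28.6 CPM in HCD, against 29.3, 26.9 and 28.9 CPM in ND. The diets overlapped for both.

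The activators had fold changes of both signs, 0 past the test. Psme1 and Psme2 encode the subunits of the ring-shaped activator that interferon gamma induces along with the inducible catalytic subunits, and lie close to each other on chromosome 14 (55578123 to 55581529 and 55587441 to 55591113). Psme1 had 112, 123 and 113 CPM in HCD 1 to 3, against 77.1, 103.5 and 107 CPM in ND 1 to 3. Psme2 had 86.3, 99.0 and 93.6 CPM in HCD, against 61.9, 88.8 and 85.1 CPM in ND. HCD 2 was the highest and ND 1 by far the lowest library for both genes, and the diets overlapped for Psme2 but not for Psme1. The log2 fold changes were 0.28 ± 0.13 SE for Psme1 (95% interval -0.02 to 0.58) and 0.24 ± 0.14 SE for Psme2 (-0.09 to 0.57), each with an adjusted p of 0.839 by edgeR. Without ND 1 they were 0.14 and 0.10. Psme2 is 99.4% identical over 794 bases to Psme2b, which held 4.43% as many counts, so its level depends on how such reads were shared.

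Psme3 and Psme4 encode activators found mainly in the nucleus. Psme3 had 135, 132 and 144 CPM in HCD, against 118, 137 and 127 CPM in ND, a log2 fold change of 0.10 ± 0.07 SE, with HCD 3 as its highest library, and 0.05 without ND 1. Psme4 had 189, 169 and 165 CPM in HCD, against 199, 169 and 187 CPM in ND, a log2 fold change of -0.08 ± 0.09 SE, with ND 1 as its highest library, and -0.03 without ND 1. Psmf1 had 39.9, 39.4 and 40.1 CPM in HCD, against 37.6, 37.4 and 37.2 CPM in ND. All 3 HCD libraries were higher, by a fitted fold of 1.06 (log2 0.09 ± 0.07 SE, adjusted p = 0.842 by edgeR).

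**Figure D4:**
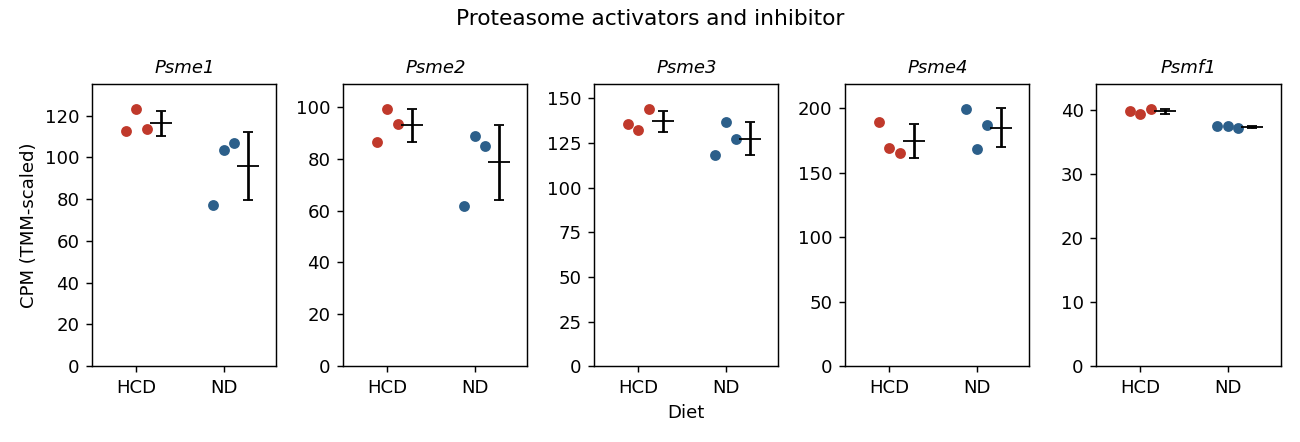
CPM of the 4 activator genes and the inhibitor gene Psmf1 in each HCD and ND library (points, replicates 1 to 3 from left to right), with mean and SD of 3 libraries (bars). ND 1 is the lowest library for Psme1 and Psme2, at 77.1 and 61.9 CPM, and the highest for Psme4, at 199 CPM.

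The inducible subunits showed the pattern of libraries seen in Psme1 and Psme2. Psmb8 had 43.2, 50.6 and 42.3 CPM in HCD against 26.4, 41.8 and 38.6 CPM in ND, Psmb9 85.4, 99.1 and 84.7 against 50.9, 89.9 and 80.0 CPM, and Psmb10 67.3, 74.6 and 67.5 against 39.8, 60.1 and 61.4 CPM. Their log2 fold changes were 0.35, 0.29 and 0.38, with adjusted p-values of 0.839, 0.842 and 0.839 by edgeR. HCD 2 and ND 1, their highest and lowest libraries, were also the highest and lowest in T cell and macrophage markers, though not in neutrophil markers. The 4 endothelium markers had the same extremes, at 293 CPM in HCD 2 and 127 CPM in ND 1. The mean deviation over all 15539 tested genes was also highest in HCD 2 and lowest in ND 1, at 0.06 and -0.07. Over the 6030 other genes in the members' range of mean CPM it was -0.0044 in HCD 2 and 0.001 in ND 1. The sum of the fibroblast markers had another order, with ND 1 the highest at 3921 CPM and HCD 2 next at 3573 CPM. Of these markers Dcn was lowest in HCD 2, at 1403.5 CPM, while Col1a1, Col1a2, Col3a1 and Pdgfra were highest there. ND 1 was the lowest library for none of them. In bulk tumours fewer cells of a type and less RNA per cell cannot be told apart, and the part of leucocytes in these values was not tested.

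The balance of constitutive to inducible catalytic genes was compared within each library, where library scaling cancels. By principal transcript the ratio of Psmb5 to Psmb8 was 2.43, 1.77 and 2.39 in HCD 1 to 3, against 3.31, 2.29 and 2.20 in ND 1 to 3. That of Psmb6 to Psmb9 was 1.52, 1.12 and 1.66 in HCD, against 2.26, 1.38 and 1.47 in ND. That of Psmb7 to Psmb10 was 0.943, 0.684 and 0.846 in HCD, against 1.27, 0.887 and 0.857 in ND. HCD 2 had the lowest and ND 1 the highest ratio for all 3 pairs, and of the remaining libraries HCD 1 and 3 lay above ND 2 and 3 for the first 2 pairs and on either side of them for Psmb7 to Psmb10. By the deposited FPKM the ratio of Psmb5 to Psmb8 was 4.32 to 5.92 in HCD and 5.36 to 8.07 in ND. That of Psmb6 to Psmb9 was 1.34 to 1.98 in HCD and 1.65 to 2.70 in ND. That of Psmb7 to Psmb10 was 0.216 to 0.298 in HCD and 0.271 to 0.401 in ND. The level of each ratio thus depends on the length used. The difference of the mean log2 ratio, HCD minus ND, was -0.23, -0.24 and -0.27 for the 3 pairs, with two-sided exact permutation p-values of 0.6, 0.6 and 0.4, each 0.6 when adjusted over the 3. The smallest p that 3 against 3 libraries allow is 0.1. Without ND 1 the differences were -0.04, -0.01 and -0.09, and without HCD 2 they were -0.08, -0.07 and -0.15.

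**Figure D5:**
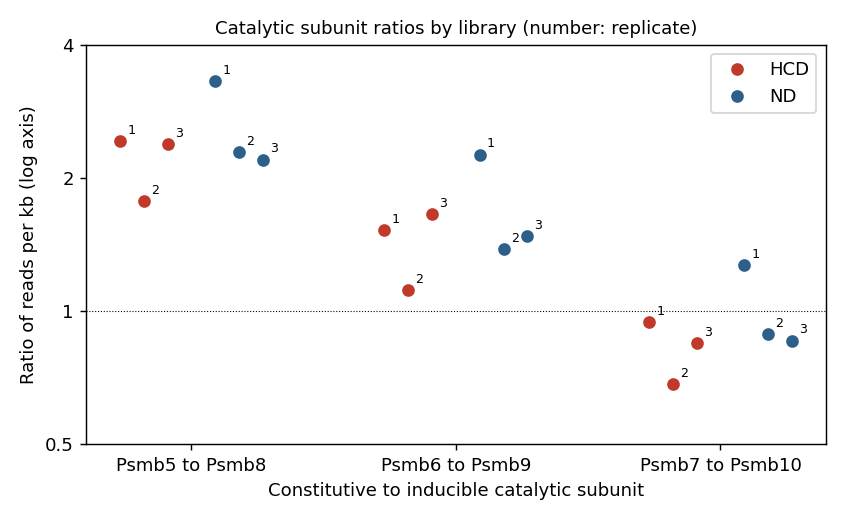
Ratio of each constitutive catalytic subunit gene to its inducible counterpart, in counts per kilobase of principal transcript (log axis), in HCD and ND libraries, with the replicate number beside each point. HCD 2 is lowest and ND 1 highest for all 3 pairs, at 1.77 and 3.31 for Psmb5 to Psmb8.

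Other genes of the pathway were taken from 6 lists, and edgeR called 0 of their 43 tested genes in either direction. The 5 assembly factors of the core all had positive fold changes, with a median of 0.14. Pomp, the chaperone that matures the core, had 154 ± 10.4 CPM in HCD and 146 ± 10.2 CPM in ND, and Psmg4 22.0 ± 1.54 and 19.2 ± 1.64 CPM (SD, n = 3 each). Among 13 receptors, deubiquitinases and shuttle factors 6 were positive and 7 negative, with a median of -0.02. Adrm1, a ubiquitin receptor of the cap, had 83.7, 83.4 and 86.3 CPM in HCD, against 72.4, 78.9 and 75.8 CPM in ND, a log2 fold change of 0.16 ± 0.06 SE (unadjusted p = 0.0354, adjusted p = 0.839 by edgeR). Txnl1, a redox protein bound to the cap and the most abundant of this list by FPKM, had 229 ± 10.5 CPM in HCD and 233 ± 8.45 CPM in ND (SD, n = 3 each).

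Of the 8 regulators of subunit transcription, 3 were positive and 5 negative, with a median of -0.06. Nfe2l1, whose product raises transcription of the subunit genes when the proteasome is impaired, had 256, 242 and 226 CPM in HCD, against 239, 259 and 255 CPM in ND, a log2 fold change of -0.06 ± 0.07 SE. Its lowest library was HCD 3, the library with the highest subunit levels. Nfe2l2 had 212 ± 2.63 CPM in HCD and 211 ± 11.3 CPM in ND, and Nfya 88.7 ± 1.59 and 85.7 ± 2.16 CPM (SD, n = 3 each).

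Of the 6 ubiquitin and E1 genes, 2 were positive and 4 negative, with a median of -0.03, against 0.01 over all tested genes. Ubb, a polyubiquitin gene, had 708 ± 15.3 CPM in HCD and 708 ± 3.94 CPM in ND. Uba6, a ubiquitin-activating enzyme gene chosen after its values were seen, had 89.3, 86.9 and 91.2 CPM in HCD, against 112, 98.1 and 101 CPM in ND. Its log2 fold change was -0.22 ± 0.07 SE (unadjusted p = 0.0165, adjusted p = 0.839 by edgeR). The 8 interferon and class I genes were all positive, with a median of 0.24. Leucocytes also express them, and their part in these values was not tested. B2m had 2214, 2725 and 2342 CPM in HCD, against 1882, 2251 and 2462 CPM in ND, and H2-D1 had 1898 ± 140.3 CPM in HCD and 1698 ± 203 CPM in ND (SD, n = 3 each).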

How the data were processed

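For each of the 6 libraries the authors' table holds, for every gene, the raw count of reads and an FPKM value, that count scaled by library size and gene length. The submitters' processing notes name TopHat2 2.0.9, HTSeq, edgeR and CASAVA 1.8 and the build mm10, without saying what each did. Annotation, gene lengths and strand setting are not given in the sources used here. All members and gene lists were chosen with earlier results of these data known. Counts were tested with the quasi-likelihood test of edgeR 4.0.16 (R 4.3.3, legacy form, TMM, default filter with minimum count 10 and total 15, diet as the only term, all 6 libraries), with Benjamini-Hochberg adjustment over 15539 genes at a threshold of 0.05, and the script was tested on simulated data. Intervals are 95%. The test used a prior count of 0.125. TMM factors ran from 0.979 to 1.02, and a count of 0 allows 0.114 to 0.147 CPM (3 counts). Genes with values in every library were set by name, or had the highest or lowest FPKM or the smallest p of their class or list. Psma7, Uba6 and genes given only as an end of a range were chosen after their values were seen. One gene that this rule names is not reported here. Ratios used an exact permutation test (scipy 1.17.1). All 41 genes were matched by ID to GENCODE M21 (GRCm38, the build of mm10), which gave positions, principal transcripts (APPRIS, longest), exon overlaps with another gene (10 of 41) and, by blastn, whole or partial matches of at least 90% identity over 200 bases (35 matches for 15 genes, 8 of them with a row in the table). Whether same-numbered HCD and ND libraries form pairs could not be decided, and the numbers were not used as pairs in the main fit. Alternatives covered DESeq2 1.42.0, limma 3.58.1 on voom values and on log2(FPKM + 1) and log2(FPKM + 0.1), other scalings and filters, a replicate block and each library left out.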

Additional observations from a re-analysis of the deposited data

How the results depend on the processing

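The count of members called was 0 in each direction in all fits run. Over all genes, edgeR called 0, DESeq2 (Wald) gave 1 higher and 7 lower, and the fits without 1 library called 0 higher and 0 to 2 lower (2 without ND 2). The median log2 fold change of the members was 0.09 and stayed positive in every fit, from 0.0428 (without HCD 3) to 0.1153 (without HCD 2) with 1 library left out. With the replicate number as a block it was 0.0827, and the block called 0 genes. Same-numbered libraries had deviation correlations of -0.24, 0.11 and 0.07, and those of unlike numbers ran from -0.54 to 0.56. With 3 libraries a diet such values cannot decide whether the numbers mark pairs. Direction turned in 5 named members: without HCD 3 in Psmb1 (with 1 library left out, -0.0129 to 0.1352), Psmd2 (-0.0087 to 0.0399), Psmd7 (-0.0092 to 0.0742) and Psmd9 (-0.0323 to 0.0885), and in Psmd10 (0.0151) in a fit without both ND 1 and HCD 2, added after seeing the data. The cause was not tested. With 1 library left out the ratio differences kept their sign, at -0.3393 to -0.0449 for Psmb5 to Psmb8, -0.37 to -0.0149 for Psmb6 to Psmb9 and -0.3776 to -0.0933 for Psmb7 to Psmb10. That sign rested on HCD 2 and ND 1. Among the other libraries, HCD 1 and HCD 3 lay above ND 2 and ND 3 for Psmb5 to Psmb8 and Psmb6 to Psmb9, the opposite direction. For Psmb7 to Psmb10 they lay on either side. The level per principal transcript was also added after seeing the data. With 3 libraries a diet, standard errors of 0.05 to 0.14 limit what can be detected.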
